A study of Mus musculus with 6 samples.

Results

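The genes described here encode proteins that fold the inner mitochondrial membrane or carry solutes and signals across the mitochondrial membranes. They are *Immt*, *Chchd3*, *Chchd6*, *Apoo* and *Apool*, which encode subunits of the MICOS complex, *Phb*, *Vdac1*, *Vdac2*, *Vdac3* and *Ppif*. These 10 genes were chosen by name among the 37074 gene names on the array, and all of them had at least 1 probe bright enough to test, as did 20778 genes in all. They were measured in LSK cells (lineage marker-negative, Sca1+ and cKit+), the bone marrow fraction that holds haematopoietic stem cells (HSCs) and early progenitors, sorted from C57BL/6 mice at postnatal day 6 to 8. The control group was Atg5w/w;VaviCre+ (3 arrays) and the other group Atg5f/f;VaviCre+ (3 arrays), labelled Atg5f/f;Vav here. Mice of both groups carried VaviCre, a recombinase driven by the promoter of *Vav*, which is active in blood cells, so that a floxed *Atg5*, a gene needed to form autophagosomes, is deleted across the haematopoietic system and not in HSCs alone. The comparison asks which transcripts differed in neonatal LSK cells when autophagy was targeted. No source used here tells whether RNA on an array came from a single mouse or from pooled mice. Errors are therefore between arrays, and the p-values measure the spread between arrays, which may be technical.

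The inner membrane of a mitochondrion is folded into cristae, which hold the respiratory chain. MICOS bends the membrane at the neck of each fold and ties it to the outer membrane, and prohibitins form a ring-shaped scaffold in the same inner membrane. VDACs are the pores through which ATP, ADP and other small metabolites cross the outer membrane, and cyclophilin D, the product of *Ppif*, is a matrix protein that promotes opening of the permeability transition pore.

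Each value below is a log2 signal, that is, the log2 intensity of a 60-mer probe minus the 75th percentile of its own array. Values of different probes are not set against each other, because brightness also depends on the probe. Probe positions are those of the array's design, in mm9. The brightest tested *Atg5* probe went against the label: its log2 signal was 1.10, 0.93 and 1.06 on control arrays and 1.46, 1.51 and 1.74 on those labelled Atg5f/f;Vav (log2 fold change 0.54, SE 0.12, adjusted p = 0.0209). With spike-in scaling it was not called (1.08, adjusted p = 0.0561). Any other probes of *Atg5* are not given here. This probe starts at base 2251 of its transcript, and whether it lies in the deleted part is not given, so it does not check the genotype. The 75th percentile of intensity ran from 651.7 to 746.2 on control arrays and from 620.3 to 881.4 on the others, and the share of spots well above background was 59.4% to 59.9% and 53.6% to 56.7%. All arrays shared 1 slide, with row 1 given to control and row 2 to the other group, so row and genotype cannot be told apart. Each slide column held 1 array of either group. Of the genes of the gate, *Ly6a* (Sca-1) was higher (log2 fold change 1.57, adjusted p = 0.00623). *Kit* was not called by its brightest tested probe (-0.38, adjusted p = 0.0563). The other tested probes of *Kit* fell further than that probe, and whether they were called is not given here. Values of *Kit* under other settings are those of the brightest probe. *Kit* was called lower with normexp background correction (-0.35, adjusted p = 0.0475), with quantile normalisation (-0.71, adjusted p = 0.0268) and with a 75th percentile over detected probes (-0.53, adjusted p = 0.0268), and was at 0.17 with spike-in scaling. Of 10 stem cell markers, 6 fell and none rose (2 fell with spike-in scaling), and their summed signal, as multiples of the 75th percentile, was 43.5 to 45.7 in control and 13.3 to 27.6 in the other group.

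Transcripts of most of the 10 genes were more abundant on the arrays labelled Atg5f/f;Vav. By limma (adjusted p under 0.05 over all 32074 probes tested), 8 genes rose, none fell, and *Immt* and *Apoo* were not called, against 18.7% of all genes called higher and 15.3% called lower. In 9 of the 10, all but *Immt*, every array labelled Atg5f/f;Vav was above every control array, which held for 29.6% of all genes tested. The log2 fold changes ran from 0.38 for *Immt* to 1.22 for *Phb*, with a median of 0.49 against -0.03 over all genes tested. The calls depended on single arrays: without control replicate 1 or without control replicate 2 none of the 10 was called (adjusted p of 0.0642 to 0.248 and of 0.0667 to 0.256, with 9 and 8 genes at an unadjusted p under 0.05), without Atg5f/f;Vav replicate 2 there were 4, and without any of the other arrays 7. Calls over all probes dropped at the same time, from 11024 to 330 and 251 without those control arrays.

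**Figure D1:**
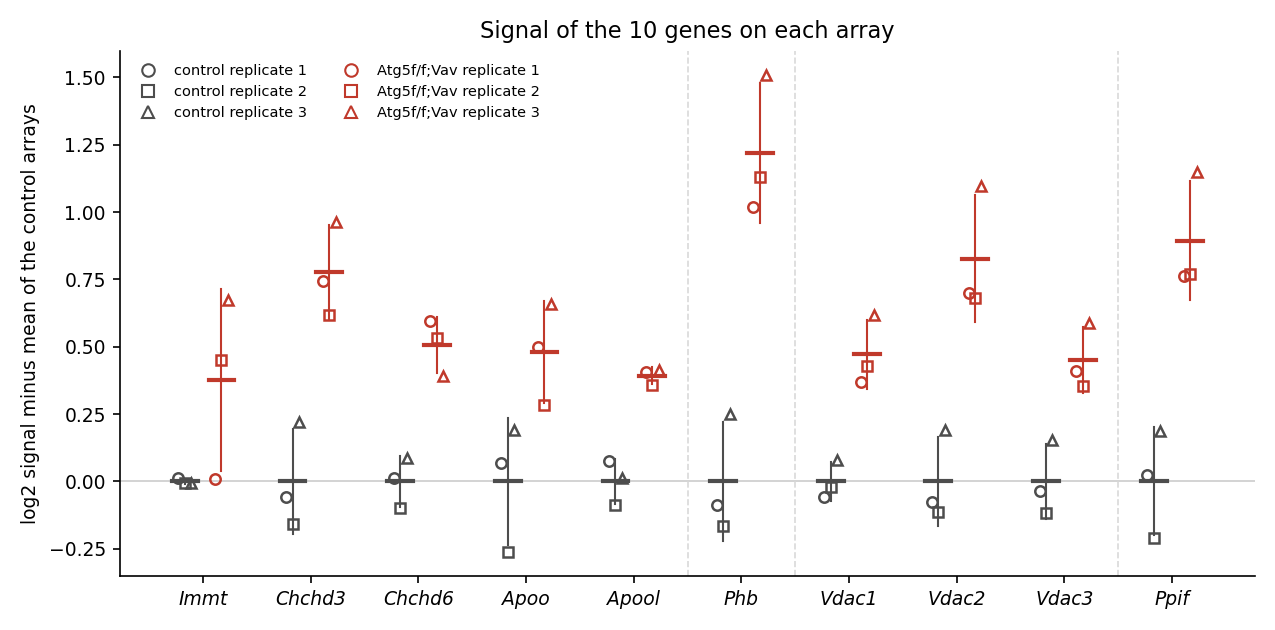
Log2 signal of each gene's representing probe on the 6 arrays, minus the mean of the 3 control arrays (y axis), for the 10 genes (x axis); open symbols are arrays, horizontal bars group means and vertical bars ±1 SD (n = 3). Only for *Immt* does an array labelled Atg5f/f;Vav sit among the control arrays, and replicate 3 of that group is the highest array for 9 genes.

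The order of the arrays within a group was similar for most of these genes. Replicate 3 of Atg5f/f;Vav had the highest signal of its group for 9 of the 10 genes, the exception being *Chchd6*, where it had the lowest. Among control arrays, replicate 3 was the highest for 8 genes and replicate 2 the lowest for 8. The median over the 10 genes, relative to each gene's control mean, was -0.01, -0.12 and 0.17 on control arrays and 0.55, 0.49 and 0.67 on the others. The groups therefore did not overlap in this median, and the gap between them exceeded the range within either group. Within slide columns 1, 2 and 3, the array labelled Atg5f/f;Vav was above the control array for 9, 10 and 10 of the 10 genes, by a median of 0.51, 0.59 and 0.61. The shares of all genes with such an order of arrays, or such a side within columns, were not computed. These counts are therefore a description and no result about the 10 genes.

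Genes of cell division rose together with these genes: 16 of 16 proliferation genes were called higher (median log2 fold change 0.77), with *Plk1*, *Aurkb* and *Cdk1*, kinases of mitosis, at 1.17, 1.09 and 0.94. With quantile normalisation 10 of the 16 were called higher (median 0.50). With spike-in scaling, and with a 75th percentile over detected probes, 15 were. Their summed signal was 148 to 198 on control arrays and 259 to 342 on those labelled Atg5f/f;Vav. Marker lists of other cells moved too. Of 11 erythroid markers, 4 rose and 4 fell (summed signal of 238 to 528 in control and 95.9 to 149 in the other group). In this and the other sums bright probes weigh most. The erythroid sum was carried mostly by *Hba-a1* (log2 signal 7.72 to 8.90 in control and 6.00 to 6.42 in the other group). It therefore does not show the 4 markers that rose. Of 10 granulocyte markers, 3 rose and 6 fell (181 to 299 and 244 to 303), and with spike-in scaling none of them fell. Of 6 stromal markers tested, 3 fell (9.88 to 39.8 and 5.62 to 8.74), while *Col3a1*, *Kitl*, *Cdh5* and *Pdgfra* were below the filter on dim probes. The stromal sum was 9.88 on control replicate 1, near the other group, and 39.8 and 29.8 on control replicates 2 and 3. With quantile normalisation 1 stromal marker fell. Of 8 B cell markers 1 rose (5 with spike-in scaling), of 8 megakaryocyte markers 2 rose and 3 fell, and of 8 markers of mast cells or eosinophils 1 rose and 1 fell. Of 7 macrophage markers tested 2 rose (4 with quantile normalisation), and of 6 T and NK cell markers tested none was called, with *C1qa*, *Mrc1*, *Cd3g*, *Cd8a* and *Il2rb* below the filter. Over all genes tested, 18.7% were called higher and 15.3% lower, and these short lists are read against those shares. What part cell composition or cycling has in the values of the 10 genes was not tested, and in bulk RNA fewer cells of a type and less RNA per cell cannot be told apart.

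*Immt* encodes mitofilin (Mic60), the subunit around which MICOS assembles. Its representing probe, on the plus strand of chromosome 6 in mm9, spans 4014 bases of the genome, from 71807005 to 71811018, so it crosses an exon junction, and starts at base 668 of its RefSeq transcript. Its log2 signal was 2.01, 1.99 and 1.99 on control arrays and 2.004, 2.44 and 2.67 on those labelled Atg5f/f;Vav. Atg5f/f;Vav replicate 1 sat at the control level, and the change of 0.38 (SE 0.18, fold 1.30) did not pass the test (adjusted p = 0.133). Without that array it was 0.56 (adjusted p = 0.0265). A second RefSeq probe, at chr6:71824730-71824789, from base 2230, had 1.34, 1.17 and 1.51 on control arrays and 2.02, 1.97 and 2.37 on those labelled Atg5f/f;Vav, with no overlap, and was called higher (0.78, SE 0.15, adjusted p = 0.0171). A probe to an Ensembl transcript, at chr6:71805061-71805120, had -1.21, -0.998 and -1.61 on control arrays and -1.57, -1.76 and -1.51 on those labelled Atg5f/f;Vav and was not called (-0.34, SE 0.18, adjusted p = 0.164). The first 30 bases of these 3 probes, as the array's design gives them 5′ to 3′, are shown because the readouts of the gene depend on which is read. No base is in capitals.
Immt junction probe: actccaacatactgaaaacagccatggaca
Immt second RefSeq probe: tcctattgtattgagcatggtgacctggag
Immt Ensembl probe: tttcattcttctgacatgagttccttggtt

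*Chchd3* (Mic19) encodes a peripheral MICOS subunit that binds mitofilin from the intermembrane space. Its representing probe lies at chr6:32742239-32742298 of mm9 on the minus strand, from base 1360 of its RefSeq transcript. The log2 signal was 1.74, 1.64 and 2.02 on control arrays and 2.55, 2.42 and 2.77 on those labelled Atg5f/f;Vav. The groups were apart by 0.78 (SE 0.15, fold 1.71, adjusted p = 0.0168). A second probe of the same transcript, at chr6:32742702-32742761, changed by 0.88 (SE 0.14, adjusted p = 0.0149). Probes to a GenBank cDNA that carries the same gene name lie 58685 bases or more away, at chr6:32801446-32801503 and chr6:32802057-32802116, and were not called. The former had -0.11, 0.01 and -0.06 on control arrays and 0.00, -0.02 and 0.48 on those labelled Atg5f/f;Vav (0.20, SE 0.16, adjusted p = 0.347), and the latter changed by 0.23 (SE 0.14, adjusted p = 0.250). Of the arrays labelled Atg5f/f;Vav, replicate 3 exceeded every control array by the former probe, and replicates 2 and 3 did by the latter. The first 30 bases of the 4 probes tell them apart.
Chchd3 representing probe: cttggcttgttcaaccaagtagtgaatact
Chchd3 second RefSeq probe: taacgtgttttgatcaacagtttaaaaagc
Chchd3 first GenBank probe: gagctctgacctccttccttgcacatgttt
Chchd3 second GenBank probe: tccgacatgaaagcttgattgtgtgacttt

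*Chchd6* (Mic25), the paralogue of *Chchd3*, was read at chr6:89333158-89333217. It had 2.61, 2.50 and 2.69 on control arrays and 3.20, 3.13 and 2.99 on those labelled Atg5f/f;Vav, with no overlap. The rise was 0.51 (SE 0.11, fold 1.42, adjusted p = 0.0206), and the call was lost with quantile normalisation (0.24, adjusted p = 0.147), with spike-in scaling (1.05, adjusted p = 0.0648) and without the filter on dim probes (adjusted p = 0.0568). Its other probe, to a GenBank cDNA, was well above background on 0 of the 6 arrays and was not tested.

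*Apoo* (Mic26) and *Apool* (Mic27) are related MICOS subunits of the apolipoprotein O family, and both lie on chromosome X. *Apoo*, read at chrX:91662289-91662348, had 1.65, 1.32 and 1.77 on control arrays and 2.08, 1.86 and 2.24 on those labelled Atg5f/f;Vav. The groups did not overlap, but the difference of 0.48 (SE 0.16) missed the threshold (adjusted p = 0.0584). With the slide column, which equals the replicate number, as a block it was called (adjusted p = 0.0309). Its other probe, at chrX:91639559-91639618, to another RefSeq transcript, had 0.21, 0.07 and 0.36 against 0.71, 0.60 and 0.98, and was called higher (0.55, SE 0.14, adjusted p = 0.0281). *Apool*, read at chrX:109485952-109486011, had 0.33, 0.16 and 0.27 on control arrays and 0.66, 0.61 and 0.67 on the others. This rise of 0.39 (SE 0.10, fold 1.31, adjusted p = 0.0292) had the smallest spread within the group labelled Atg5f/f;Vav of the 10 genes (SD 0.03). Its call was lost with a 75th percentile over detected probes (0.24, adjusted p = 0.0862), with spike-in scaling (0.94, adjusted p = 0.103) and without the filter on dim probes (adjusted p = 0.0797).

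A probe named for *Apool* moved the other way. It was designed on an Ensembl transcript, lies at chrX:109462024-109462083, 23869 bases before the representing probe, and had -2.60, -2.42 and -2.60 on control arrays and -3.02, -3.08 and -3.20 on those labelled Atg5f/f;Vav. Every array labelled Atg5f/f;Vav was below every control array, and the fall was called (-0.56, SE 0.11, adjusted p = 0.0178). Averaged over both tested probes, the change of *Apool* was -0.08 (adjusted p = 0.498). The third *Apool* probe, to a GenBank cDNA, was well above background on 2 control arrays and on 0 of the others and was not tested. The first 30 bases of the probes that were called in opposite directions are shown.
Apool representing probe: gtgaaaaatcacataatgaacgggtaactg
Apool Ensembl probe: tgcatttcatcttcaatgtaaacaactttt

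Over all 20 probes that carry the name of one of the 10 genes, 18 were tested, of which 12 were called higher and 1 lower, against 17.3% of all probes tested called higher. All 14 tested probes designed on RefSeq transcripts had a log2 fold change above 0, while the Ensembl probes of *Immt* and *Apool* were below 0. The share of all RefSeq probes above 0 was not computed, so this count is no result about the 10 genes. The 5 tested probes that were not called were the representing probes of *Immt* and *Apoo*, the Ensembl probe of *Immt* and the GenBank probes of *Chchd3*. Of the 5 genes with several tested probes, *Apool* alone was called both ways, which held for 1.73% of the 7114 genes with several tested probes. In 3 of the 5, some probes were called and others not, which held for 40.1% of those genes. Differences in change between probes of the same gene were tested within arrays, a comparison added after the values were seen. In 6 of 12 pairs the within-array difference did not overlap between the groups, and exact 2-sided permutation gave its smallest possible p of 0.1 (0.2 after Benjamini-Hochberg adjustment over the 12 pairs). These pairs were the second RefSeq probe of *Immt* against its Ensembl probe (a difference of 1.12), both RefSeq probes of *Chchd3* against both GenBank probes (0.55 to 0.68) and both tested *Apool* probes (0.95). The *Chchd3* pairs share neighbouring probes, 404 bases apart for RefSeq and 554 for GenBank, so they are not independent contrasts. The share of such pairs over all genes was not computed, so the count is no result about the 10 genes.

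**Figure D2:**
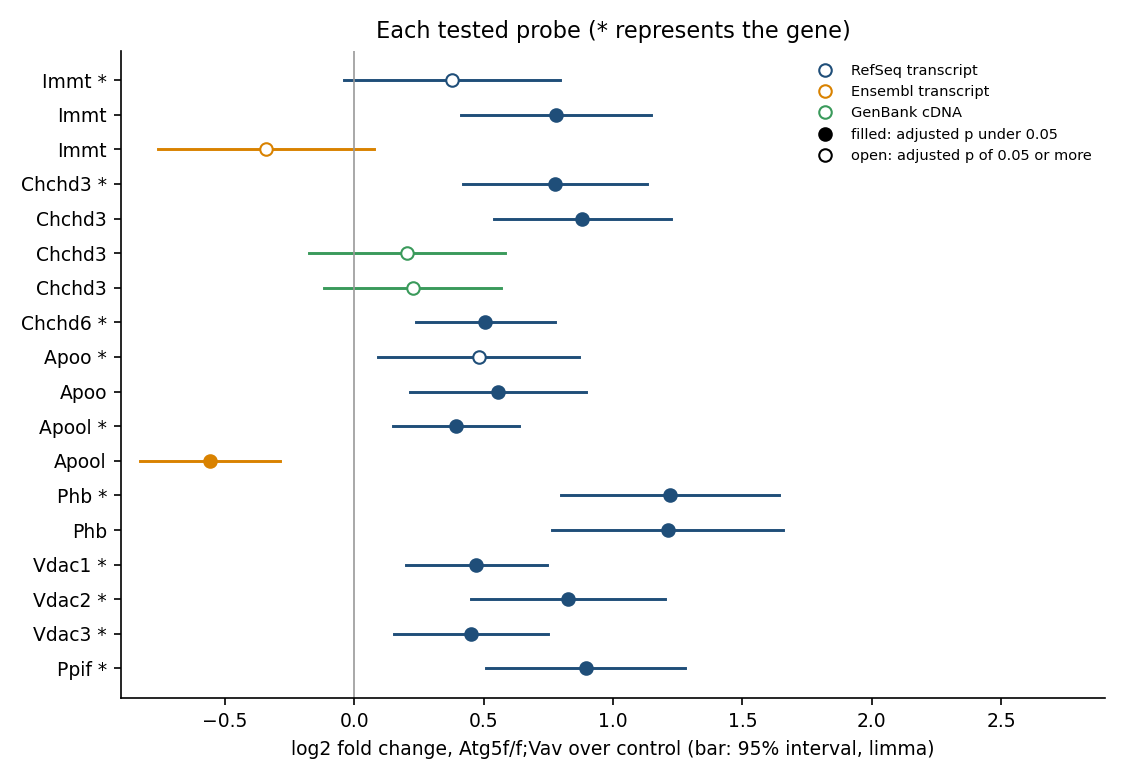
Log2 fold change (x axis, Atg5f/f;Vav over control, bar: 95% interval from limma, n = 3 against 3) of the 18 tested probes, grouped by gene and coloured by the kind of transcript on which the probe was designed. The 1 filled point left of 0 is the Ensembl probe of *Apool*, and the open points near 0 include the GenBank probes of *Chchd3*.

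*Phb* encodes prohibitin 1, which alternates with prohibitin 2 in the inner membrane scaffold. It changed most of the 10. At chr11:95541275-95541333 the log2 signal was 3.21, 3.14 and 3.55 on control arrays and 4.32, 4.43 and 4.81 on those labelled Atg5f/f;Vav. The lowest array of the latter lay above the highest control array by more than the range of the control arrays. The rise was 1.22 (SE 0.18, 95% interval 0.80 to 1.64), a fold of 2.33 (adjusted p = 0.0138). A second probe overlaps the first, at chr11:95541283-95541342, so it is no independent readout, and changed by 1.21 (SE 0.19, adjusted p = 0.0145). *Phb2*, its partner, rose by 1.01 by its representing probe (SE 0.16, adjusted p = 0.0147). Its other tested probe was not called (0.23, adjusted p = 0.245).

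All 3 VDAC genes rose, each read by a single probe. *Vdac1*, the most studied isoform, at chr11:52202820-52202879, had 4.70, 4.74 and 4.84 on control arrays and 5.13, 5.19 and 5.38 on those labelled Atg5f/f;Vav. Its rise was 0.47 (SE 0.12, fold 1.39, adjusted p = 0.0246). *Vdac2*, which also holds the apoptosis effector Bak at the outer membrane, at chr14:22664682-22664741, had 4.36, 4.32 and 4.63 on control arrays and 5.14, 5.12 and 5.54 on those labelled Atg5f/f;Vav. Its rise was the largest of the family, at 0.83 (SE 0.16, fold 1.77, adjusted p = 0.0167). *Vdac3*, at chr8:23687728-23687787, had 4.14, 4.06 and 4.33 on control arrays and 4.59, 4.53 and 4.77 on those labelled Atg5f/f;Vav, a rise of 0.45 (SE 0.13, fold 1.37, adjusted p = 0.0341). No group overlapped with the other in any of the 3. The calls of *Vdac1* and *Vdac3* were lost with quantile normalisation, where the changes were 0.10 (adjusted p = 0.418) and 0.08 (adjusted p = 0.510), while *Vdac2* kept 0.45 (adjusted p = 0.0346). Both calls were also lost with spike-in scaling (adjusted p = 0.0748 and 0.0814) and without the filter on dim probes (adjusted p = 0.066 and 0.0861). That of *Vdac3* was lost too with a 75th percentile over detected probes (0.29, adjusted p = 0.066).

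Whether paralogues changed by unequal amounts was tested on 5 pairs through their difference within each array, with exact 2-sided permutation, which with 3 arrays against 3 cannot go below p = 0.1. *Vdac1* minus *Vdac2* was 0.34, 0.42 and 0.21 on control arrays and -0.01, 0.07 and -0.16 on those labelled Atg5f/f;Vav, so *Vdac2* changed by 0.35 more. *Vdac2* minus *Vdac3* was 0.22, 0.26 and 0.30 on control arrays and 0.55, 0.59 and 0.77 on those labelled Atg5f/f;Vav, a difference of 0.38. Neither pair overlapped between groups, and both had the smallest exact p of 0.1 (0.25 after Benjamini-Hochberg adjustment over the 5 pairs). The other pairs overlapped: *Vdac1* and *Vdac3* differed in change by 0.02 (exact p = 0.8), *Chchd3* and *Chchd6* by 0.27 (exact p = 0.2), and *Apoo* and *Apool* by 0.09 (exact p = 0.6). Such p-values do not show that these pairs changed alike.

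*Ppif*, which encodes cyclophilin D, was read at chr14:26519434-26519493. It had -0.03, -0.26 and 0.13 on control arrays and 0.71, 0.72 and 1.10 on those labelled Atg5f/f;Vav. The groups were far apart relative to their SDs of 0.20 and 0.22, and the rise was 0.89 (SE 0.16, 95% interval 0.51 to 1.28, fold 1.86, adjusted p = 0.0161). Among 11 other cyclophilins, which fold proteins in other compartments, 5 rose and none fell (median 0.30), with *Ppil3* at 0.79, *Ppid* at 0.75 and *Ppih* at 0.75.

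Start sites of these genes were examined because most of the genes moved in the same direction. RefSeq start sites (GRCm38.p6, 250 bases before to 50 after) were held for 8 of the 10 genes, in 10 windows. *Vdac2* and *Vdac3* had no entry. Both strands were searched for 4 motifs. CCAAT, the box read by NF-Y, was found for 6 of the 8 genes, against 41.1% of 27025 genes and 37.4% of 32851 promoters in the table. CCGGAAGT, an ETS motif, was found for *Ppif* (3.89% of promoters), and TGACNNNGC, the core of the antioxidant response element read by Nrf2, for *Apoo* (12.4% of promoters). CGCATGCGC, the motif of NRF1, was found for 0 of the 8 (1.75% of promoters). With few genes these shares are a description, and a match is not a binding site. No searched motif was found for *Vdac1*.

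The 150 bases before the start site of the 6 genes with CCAAT follow, 5′ to 3′ on the strand of the gene, with CCAAT in capitals. All but 1 of the matches read CCAAT on the strand of the gene, and they begin 13 to 134 bases before the start site. The exception is a further match of *Apool* on the other strand, 189 bases before the start site, outside the stretch shown. The windows are at chr6:71831170-71831319 (plus strand) for *Immt*, chr6:33060261-33060410 (minus) for *Chchd3*, chr6:89595653-89595802 (minus) for *Chchd6*, chrX:112311202-112311351 (plus) for *Apool*, chr11:95666807-95666956 (plus) for *Phb* and chr14:25694020-25694169 (plus) for *Ppif*.
Immt promoter: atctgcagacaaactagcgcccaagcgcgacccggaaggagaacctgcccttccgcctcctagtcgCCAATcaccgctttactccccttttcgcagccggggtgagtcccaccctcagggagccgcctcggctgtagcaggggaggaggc
Chchd3 promoter: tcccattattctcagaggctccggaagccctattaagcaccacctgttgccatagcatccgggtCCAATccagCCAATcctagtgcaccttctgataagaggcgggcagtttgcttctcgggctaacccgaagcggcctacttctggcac
Chchd6 promoter: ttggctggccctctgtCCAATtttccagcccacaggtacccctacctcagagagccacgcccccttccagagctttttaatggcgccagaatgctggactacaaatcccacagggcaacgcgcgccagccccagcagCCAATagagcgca
Apool promoter: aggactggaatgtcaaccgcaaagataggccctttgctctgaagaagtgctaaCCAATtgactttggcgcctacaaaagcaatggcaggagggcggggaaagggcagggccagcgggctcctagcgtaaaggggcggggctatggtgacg
Phb promoter: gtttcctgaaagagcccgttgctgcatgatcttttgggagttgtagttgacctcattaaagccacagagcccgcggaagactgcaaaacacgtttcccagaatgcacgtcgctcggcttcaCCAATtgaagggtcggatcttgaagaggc
Ppif promoter: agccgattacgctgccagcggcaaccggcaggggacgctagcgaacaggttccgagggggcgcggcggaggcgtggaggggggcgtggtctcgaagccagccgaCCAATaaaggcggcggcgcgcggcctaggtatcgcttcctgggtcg

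*Chchd3* and *Chchd6* each hold 2 copies of CCAAT in the stretch shown, and the others 1.

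Partner genes were taken from 7 lists with 71 tested genes. One of these lists is that of the 11 other cyclophilins above, which are not genes of these membranes. Of the 71, 42 were called higher and 1 lower, against 18.7% and 15.3% of all genes. Of 8 MICOS partners 5 rose and none fell (median log2 fold change 0.51). *Samm50*, the outer membrane assembly factor to which MICOS is tied, rose by 1.01, *Minos1* (Mic10), the subunit that bends the membrane, by 0.78 and *Mtx1*, a metaxin, by 0.56. *Opa1*, the inner membrane fusion GTPase that also narrows crista necks, was not called by its representing probe (0.14, adjusted p = 0.326), and this value was -0.02 both with quantile normalisation and with a 75th percentile over detected probes. Its other tested probe was called higher (0.85, adjusted p = 0.0189). Of 13 other genes of crista shape 11 rose (median 0.69), with *Phb2* at 1.01, *Atpif1*, the inhibitor of ATP synthase, at 0.90 and *Afg3l2*, a subunit of an inner membrane protease, at 0.79.

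Of 8 genes for cardiolipin, the lipid of the inner membrane, 6 rose (median 0.58), led by *Tamm41* at 0.93, *Pgs1* at 0.64 and *Prelid1* at 0.63. Of 10 genes with the same paired-cysteine fold as *Chchd3* 7 rose (median 0.54), led by *Chchd10* at 1.09, *Chchd4*, the import receptor of such proteins, at 0.86 and *Cmc2* at 0.78. The median of the 10 genes themselves was 0.49.

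Of 13 tested partners of the pores 7 rose and none fell (median 0.45), among them *Bak1* and *Bax*, effectors of apoptosis at the outer membrane, at 1.11 and 0.93, and *Tspo*, an outer membrane protein, at 0.86. The ADP/ATP carriers *Slc25a5* and *Slc25a4* rose by 0.84 and 0.40, and the call of the latter was lost with quantile normalisation (0.04, adjusted p = 0.758). The hexokinases *Hk1* and *Hk2*, which dock on VDAC, were not called by their representing probes, at -0.06 (adjusted p = 0.685) and 0.15 (adjusted p = 0.437). Either sign turned under another scaling (0.48 for *Hk1* with spike-in scaling and -0.01 for *Hk2* with a 75th percentile over detected probes). Another probe of *Hk1* was called higher (0.97, adjusted p = 0.0251). *Slc25a31* was below the filter. Of 8 genes of the calcium uniporter, by their representing probes, only *Smdt1* rose (0.48, adjusted p = 0.0218) and only *Micu3* fell (-0.63, adjusted p = 0.0341). Such counts lie near the share of all genes called in either direction and are no result about this list. The pore subunit *Mcu* was not called by its representing probe (0.35, adjusted p = 0.198), while other probes of it were called lower (-0.96 and -0.71). The call of *Smdt1* was lost with quantile normalisation (0.11, adjusted p = 0.351) and with spike-in scaling (1.03, adjusted p = 0.071), and so was that of *Micu3* (-0.55, adjusted p = 0.0526, and -0.09, adjusted p = 0.902). The median of this list, 0.14, turned to -0.02 with a 75th percentile over detected probes. Differences between lists were not tested.

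**Figure D3:**
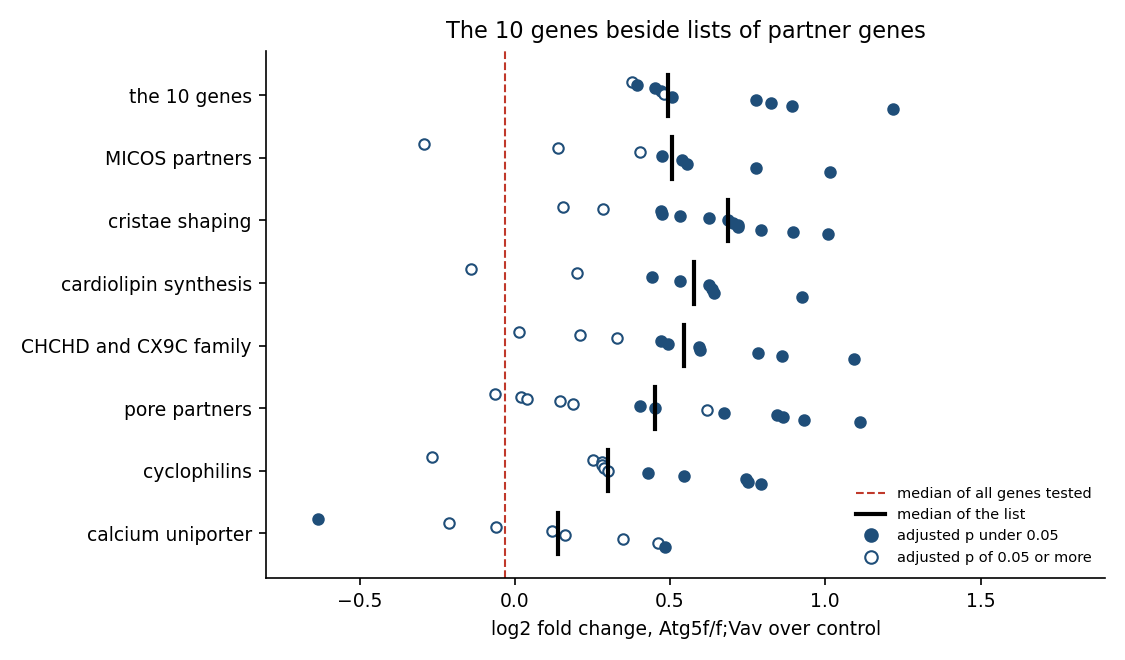
Log2 fold change (x axis, Atg5f/f;Vav over control) of each tested gene in the 10 genes and in 7 lists of partner genes (y axis); points are genes, filled where called, and black bars list medians. The medians run from 0.14 for the calcium uniporter to 0.69 for crista shape, and the dashed line marks the median of all genes tested, -0.03.

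The sizes of the changes depend on the scaling of the arrays, while the direction of each gene was the same under every alternative run except the mean of all probes, where *Apool* turned. Quantile normalisation lowered the median of the 10 genes to 0.34 and left 5 called, *Chchd3*, *Apool*, *Phb*, *Vdac2* and *Ppif*. Scaling by spike-in RNA, of which 7 of 10 were detected, raised it to 1.04 and the median of all genes to 0.51, with 4 called. *Phb*, *Vdac2*, *Ppif* and *Chchd3* were called under 11 of the 12 alternatives that kept all arrays, the exception being the test named in the methods, which does not pool the variance over genes. The 12 include the deposited signal, which repeats the reported values.

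**Figure D4:**
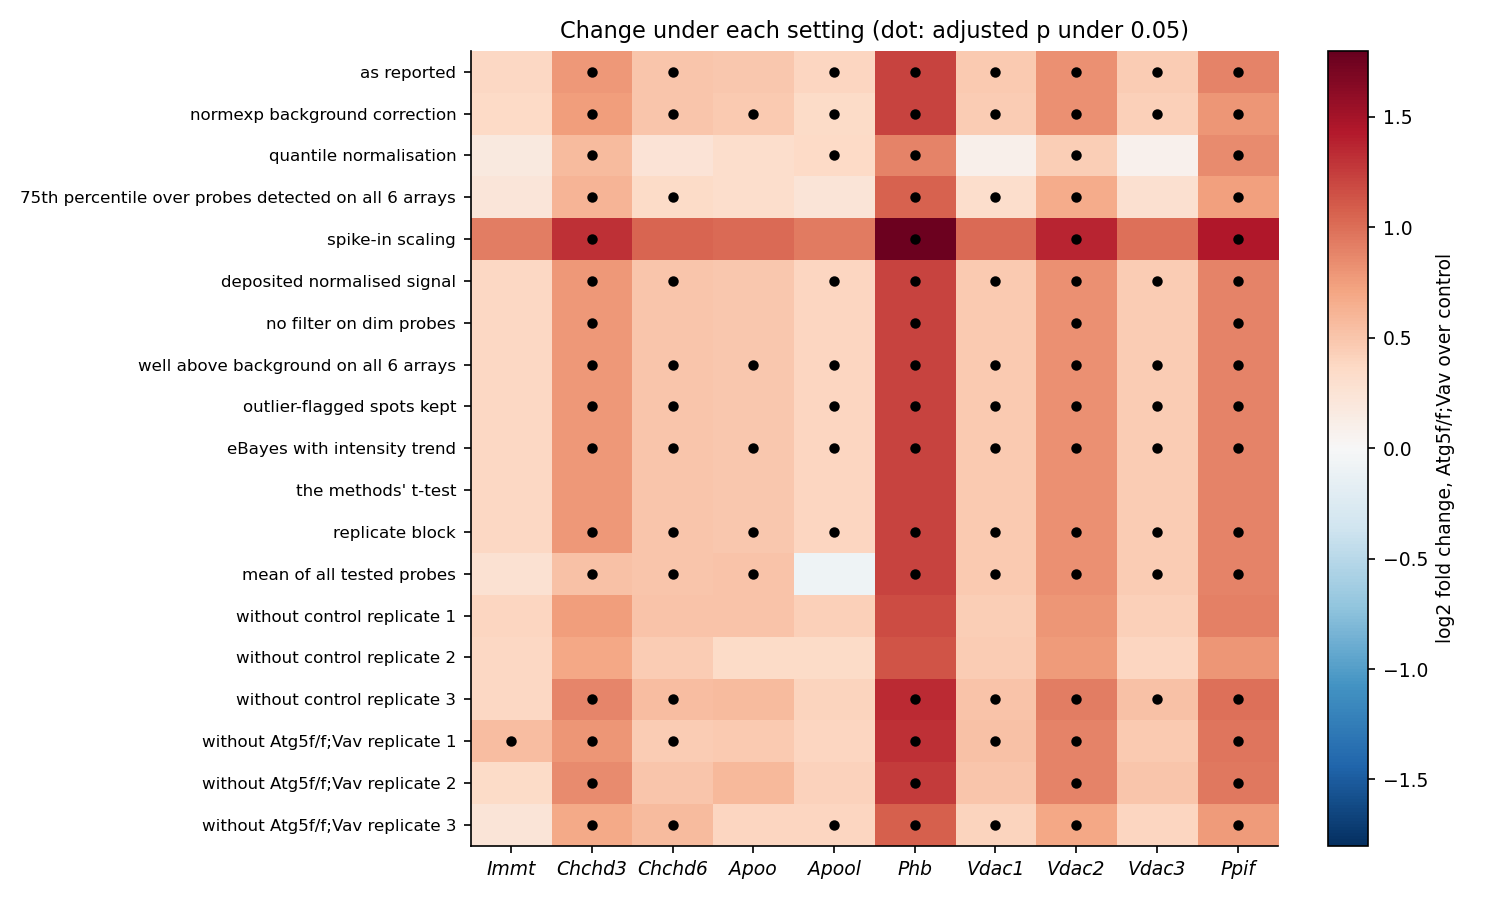
Log2 fold change (colour, Atg5f/f;Vav over control) of the 10 genes (columns) as reported and under each of the other settings (rows), with a dot where the adjusted p is under 0.05. Dots are missing for all genes with the test named in the methods and without control replicate 1 or 2, and the only blue cell is *Apool* as the mean of its probes.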

How the data were processed

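RNA of LSK cells was hybridised to 1-colour Agilent arrays, 1 per sample, with probes designed on mm9. The authors deposited scanner files with the intensity of each spot, background-corrected by Agilent Feature Extraction 12.0.3.1 (per the labels), and a table of normalised signal, which equals that intensity divided by a constant per array (checked, spread of at most 0.000267%). Arrays give no read depth, and with so few of them their number limits the precision.

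From the intensity, log2 values were computed and the 75th percentile of the 59305 non-control spots of the same array was subtracted. On each array 64 to 81 outlier spots were dropped, no spot was saturated, and spots of a probe were averaged. A probe entered the test when 3 or more arrays had it well above background (32074 of 56605 probes). The test was limma 3.58.1 (2-sided, lmFit then eBayes, R 4.3.3), with Benjamini-Hochberg adjustment over all tested probes and a threshold of 0.05, after a check on simulated data. The brightest tested probe represents a gene. The adjusted p-values in the report are limma's. Exact permutation tests used scipy 1.17.1.

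Groups follow the labels. The members and the lists were chosen with earlier results of these data known. Named are all members, Atg5, Kit, Ly6a, 8 partners, and up to 3 called genes each way per list of mitochondrial, cyclophilin or proliferation genes. Marker lists are given as counts and summed signals, with Hba-a1 named as the brightest erythroid marker. Alternatives were normexp (offset 50), quantile and spike-in scaling, a 75th percentile that uses only detected probes, the deposited signal, other filters, the replicate block, the methods' t-test, eBayes with a trend, the mean of all probes, and each array left out. Protein sequences and exon annotation were not used here. Probes are shown by their first 30 bases, without the planned check of their translation.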

Additional observations from a re-analysis of the deposited data

How the results depend on the processing

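As reported, 8 of the 10 genes were called higher and 0 lower, with a median log2 fold change of 0.49, beside 5540 probes called higher and 5484 lower and, in the 7 partner lists, 42 genes higher and 1 lower. Quantile normalisation gave 5 of the 10 genes, a median of 0.34, and 23 and 0 partner genes. A 75th percentile that uses only detected probes gave a median of 0.34, 8744 probes lower (30.8% of calls higher, against 50.3%) and 3 partner genes lower. Spike-in scaling gave 4 genes, a median of 1.04, 452 probes lower (89.7% of calls higher) and 0 partner genes lower. Relative to all genes, whose median moved from -0.03 to -0.02, -0.19 and 0.51, the 10 genes stood at 0.52 as reported and at 0.36, 0.52 and 0.52. Without a filter on dim probes, all 56605 probes entered both the pooling of variance and the adjustment. In that run 4 genes, 2324 probes higher, 2214 lower, and 21 and 0 partner genes were called. The methods' t-test called 0 genes, 0 probes and 0 partner genes in either direction after adjustment, with 8 of the 10 genes at an unadjusted p under 0.05. The mean of all probes gave 3 partner genes lower and turned *Apool* to -0.082. With 1 array left out, 0 to 7 of the 10 genes were called, with 155 to 4962 probes higher, 96 to 5342 lower, and 0 to 41 partner genes higher and 0 to 1 lower.

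The difference in change of *Vdac1* and *Vdac3* ran from -0.017 to 0.069 with 1 array left out, and that of *Apoo* and *Apool* turned to -0.052 with quantile normalisation and rose from 0.09 to 0.60 (exact p = 0.1) with the mean of all probes. That of *Chchd3* and *Chchd6*, 0.27, was 0.02 with the mean of all probes and 0.34 (exact p = 0.1) with quantile normalisation. Same-numbered arrays share a slide column. Their deviations correlated at -0.07, 0.19 and 0.11, not all above 0.1, so the numbers were not taken to pair the samples, and 4 of 6 arrays correlated best with their own number. With the replicate block, which is also the slide column, 9 of the 10 genes were called, 5261 probes higher and 4912 lower, and 42 and 1 partner genes; *Apoo* was the gene added. Of the single-gene values, 93 of 120 kept side and direction with all arrays kept, 21 lost the call, 5 gained it and 1 turned. The 120 include those of the deposited signal, which repeat the reported values, and those of settings that cannot change a log2 fold change. The cause of these shifts was not tested.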

Other observations

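Probes of partner genes that carry the same name also differed. Of 46 partner genes with several tested probes, *Chchd7* alone was called both ways (0.55, adjusted p = 0.0192, and -0.44, adjusted p = 0.0202). *Cox17*, a copper chaperone for cytochrome oxidase, was at 0.01 (adjusted p = 0.951) by its representing probe and at 0.94 and 0.88 (adjusted p = 0.0171 and 0.0191) by its other probes. *Hk1* was at -0.06 by its representing probe and at 0.97 (adjusted p = 0.0251) by another, and *Oma1*, a protease that cuts Opa1, at 0.16 and -0.78 (adjusted p = 0.0161). *Mcu* was at 0.35 by its representing probe. Its other tested probes were at -0.96 (adjusted p = 0.0186), -0.71 (adjusted p = 0.0227) and -0.05 (adjusted p = 0.742). These genes were picked after their values were seen, and what sets their probes apart was not tested.

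The letters AATAAA, the common polyadenylation signal, occur in 6 of the 20 probes of the cristae and pore genes and in 9.77% of all probes on the array. Both *Phb* probes are among the 6, and as they overlap they are not independent.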
